A study of Mus musculus with 13 samples.

Results

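The cells described here are claustrum neurons of 3 mice that carried a retrograde label and expressed Synpr, split by the cortical area the label came from. A cell was included if Snap25 and Slc17a7 each had at least 1 count in it, if Synpr reached 200 CPM (counts scaled to 1 common total per cell, spike-ins left out), and if it carried the label retrosplenial cortex (RSC) or lateral entorhinal cortex (LEC). Of the 1112 cells of the series, 258 met this rule, and they are called core-like below. Labeled cells that had both other genes but less Synpr are called Synpr-low. There were 213 with the label RSC (52, 56 and 105 in mice 1, 2 and 3) and 45 with the label LEC (18, 11 and 16).

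The mice were mature male C57BL/6 animals. Green retrobeads had been placed in the LEC and red retrobeads in the RSC of each of these 3 mice, so both groups come from the same brains. Cells were drawn by hand from dissected claustrum into plates, barcoded within a plate and sequenced. Cells without a bead label from the same mice (Unlabeled, 67 core-like cells) served here to choose genes and as a further reference, and the mouse without projection labels was not used.

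In the rodent claustrum, excitatory neurons form a core and a surrounding shell that differ in the genes they express. Synpr encodes synaptoporin, a protein of synaptic vesicles, and is a marker of core neurons. Core neurons are known for projecting to midline cortex such as the RSC, and neurons around them for projecting to the LEC. The comparison asks about the exceptions, the neurons that met the core rule and yet projected to the LEC: how near they came to the profile of core-like neurons that projected to the RSC, and how large a difference these data could have missed.

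The rule itself sets how many cells each label gave. Of the kept cells, 86.2% of 247 with the label RSC and 15.7% of 286 with the label LEC were core-like, and the LEC share was 22.5%, 14.5% and 12.3% in mice 1, 2 and 3. Synpr had a median of 1712 CPM in RSC and 1522 CPM in LEC core-like cells. The lowest Synpr levels inside the limit were 209, 599 and 774 CPM in LEC cells and 275, 349 and 350 CPM in RSC cells. The highest outside it were 180, 151 and 145 CPM in LEC cells and 110, 72.4 and 36.0 CPM in RSC cells. These values chose the cells, so they are given as a description.

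Counts were summed over the cells of a mouse and label. The 3 LEC sums held 4494511, 2202114 and 3417801 counts in mice 1, 2 and 3, and the 3 RSC sums 11505718, 5574028 and 18753910. LEC core-like cells had a median of 215001 counts and RSC core-like cells one of 145862, with the RSC cells of mouse 2 lowest at 97775. Label and plate nearly coincided. Of the 7 plates that held these cells, 1 held both labels, plate 12 of mouse 3 with 10 LEC and 29 RSC cells, so in mice 1 and 2 plate and label cannot be told apart. The same cell barcodes were used again in several plates, and 10 of the 45 LEC core-like cells had a barcode that an RSC core-like cell of another plate also had.

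A few of the cells that met the rule carried markers of inhibitory neurons. Gad1 and Gad2, the enzymes that make GABA, together reached 362 to 606 counts in 3 RSC core-like cells of 2 mice, which held 99.6% of the counts of these genes in RSC core-like cells. Each of the 3 had 1 count of Slc17a7, the vesicular glutamate transporter that the rule asks for. Another 5 RSC cells had 1 count of either gene, and the LEC core-like cells had none. The fit was therefore also made without these 3 cells.

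LEC core-like neurons expressed the core markers at levels close to those of RSC core-like neurons. Across the 20 core markers other than Synpr, the LEC minus RSC difference had a median of 0.02 on the log2 scale and ran from -0.44 to 0.29. The 95% interval of the difference lay inside 2-fold either way for 20 of the 20 (edgeR quasi-likelihood fit). The same held for 34.1% of all 11330 genes tested and for 84.1% of the 3863 genes with a mean of at least 50 CPM. The median level of the 20 markers was 351 CPM, and among the 998 genes from 200 CPM the share was 99.2%. The 20 of 20 is thus near the share of genes at such levels and is not particular to core markers. No core marker passed the threshold, an adjusted p of 0.05. Both sides were selected on the same Synpr limit, and Synpr is itself a core gene, so the comparison is of cells that are alike by construction in that one gene.

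**Figure D1:**
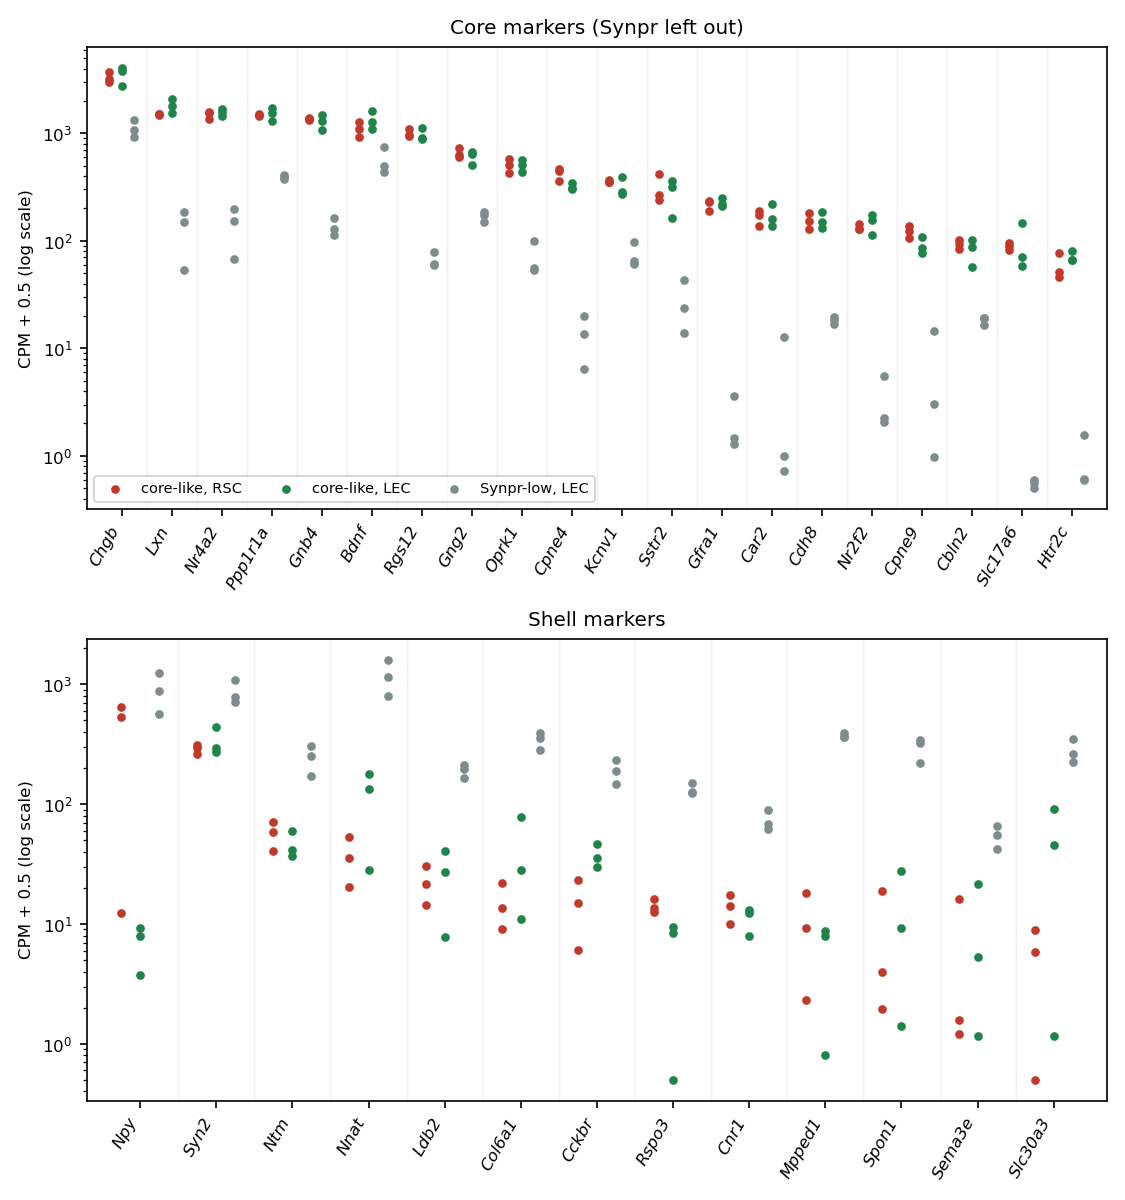
Level of the 20 core markers (top) and 13 shell markers (bottom) in each sum, as CPM + 0.5 on a log scale, with 1 point per mouse for core-like RSC cells, core-like LEC cells and Synpr-low LEC cells. For the core markers, the core-like LEC points lie with the core-like RSC points and above the Synpr-low LEC points.

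Gnb4, a G protein beta subunit used as a general claustrum marker, was at 1298, 1475 and 1065 CPM in the LEC sums of mice 1, 2 and 3 and at 1379, 1346 and 1299 CPM in the RSC sums. The groups overlapped, and the difference was -0.07 with an interval of -0.35 to 0.21. Nr4a2, an orphan nuclear receptor found in claustrum neurons, was at 1669, 1430 and 1537 CPM in LEC and 1352, 1516 and 1546 CPM in RSC, with an interval of -0.15 to 0.29. In LEC-labeled cells under the Synpr limit, the means of these genes were 135 and 140 CPM.

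Gfra1, a receptor for the growth factor GDNF, was at 211, 217 and 246 CPM in the LEC sums and 188, 232 and 227 CPM in the RSC sums, which overlapped. Its mean was 1.61 CPM in Synpr-low LEC cells. Slc17a6, the vesicular glutamate transporter VGLUT2, was at 57.7, 69.7 and 144 CPM in LEC and 81.5, 93.2 and 87.7 CPM in RSC. For Slc17a6 the 3 LEC values spanned those of RSC and the interval was wide, -0.69 to 0.80.

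The core markers include receptors for neuromodulators and peptides. Oprk1, the kappa opioid receptor, differed by 0.00 (-0.34 to 0.34), while the intervals of Sstr2, a somatostatin receptor (-0.14, -0.83 to 0.54), and Htr2c, a serotonin receptor (0.29, -0.32 to 0.91), were wider. Htr2c was higher in LEC in each of the 3 mice, at 65.5, 79.0 and 64.5 CPM against 50.5, 75.2 and 44.9 CPM in RSC, though the groups overlapped. In thinned cells, as described below, 57.8% of LEC, 37.3% of RSC and 59.7% of Unlabeled core-like cells had a count of Htr2c. Without thinning the shares were 84.4%, 55.9% and 83.6%. These shares pool cells over the 3 mice and their plates, and cells are not replicates.

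A pair of the 20 markers had an unadjusted p under 0.05, where 4.17% of all genes did. Lxn, latexin, an inhibitor of carboxypeptidases and a classic claustrum marker, was at 1518, 2056 and 1772 CPM in LEC and 1451, 1481 and 1502 CPM in RSC. Every LEC sum of Lxn was above every RSC sum, by 0.27 on the log2 scale (0.01 to 0.53, edgeR p = 0.043, adjusted p = 0.9997). Cpne4, a calcium-dependent phospholipid-binding protein, was at 306, 299 and 342 CPM in LEC and 463, 351 and 438 CPM in RSC. Here every LEC sum was below every RSC sum, with a difference of -0.40 (-0.73 to -0.08, edgeR p = 0.020, adjusted p = 0.9997). Sums of this kind without overlap were found for 4.93% of all genes with LEC above and for 7.03% with LEC below.

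The lowest of the core markers was Cpne9, a relative of Cpne4, at 75.5, 85.4 and 106 CPM in LEC and 123, 136 and 104 CPM in RSC. Its interval, -0.92 to 0.03, reached down to a level in LEC cells of 0.53 times that in RSC cells. Within plate 12, where both labels were processed together, Cpne9 was at 104 CPM in LEC and 109 CPM in RSC cells and Cpne4 at 338 and 489 CPM.

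**Figure D2:**
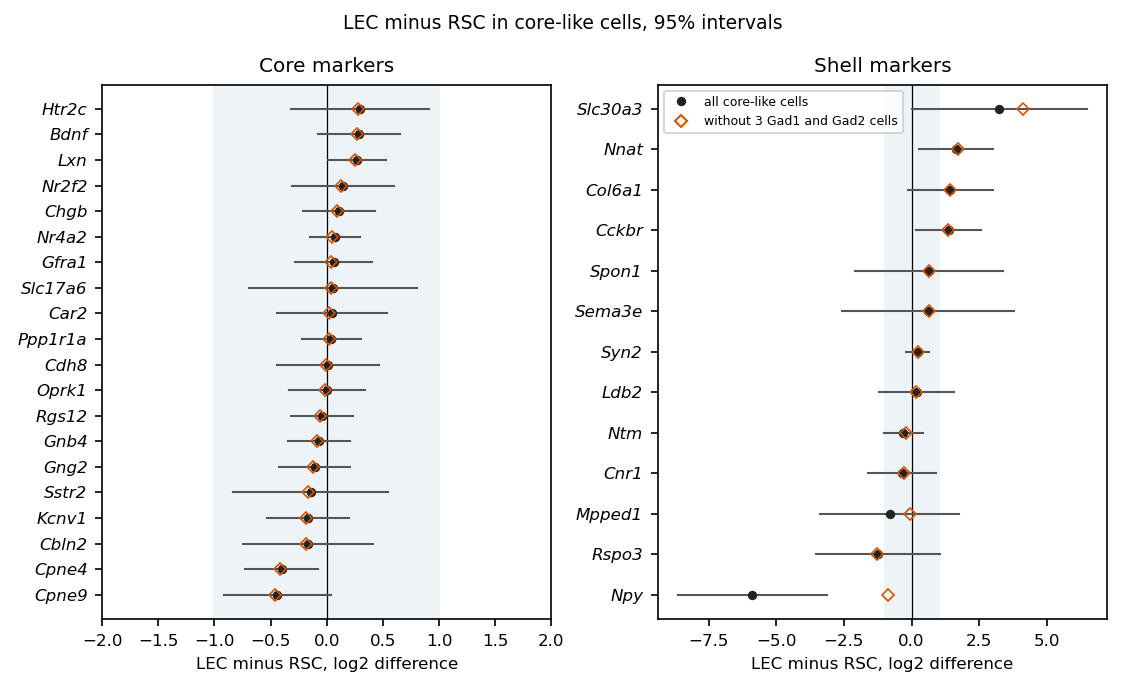
LEC minus RSC log2 difference for the core markers (left) and shell markers (right), with 95% intervals as lines, the fit to all core-like cells as filled points and the fit without 3 Gad1 and Gad2 cells as open diamonds. The shaded band is 2-fold either way, and every core marker interval lies inside it, while 1 of the 13 shell marker intervals does. The horizontal axes differ.

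How small a difference could be seen depended on expression. Of the 2877 genes with a mean under 10 CPM, 0 had an interval inside 2-fold, and the median half-width was 2.31 log2 units. The half-width had a median of 1.11 among the 4590 genes between 10 and 50 CPM, 0.57 among the 2865 genes between 50 and 200 CPM and 0.33 among the 998 genes above that. As a fold, this last value is 1.26. Among genes above 200 CPM, 990 of 998 intervals lay inside 2-fold, against 2260 of 2865 between 50 and 200 CPM. The intervals are per gene and were not widened for the number of genes, so some of many do not hold the true difference.

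**Figure D3:**
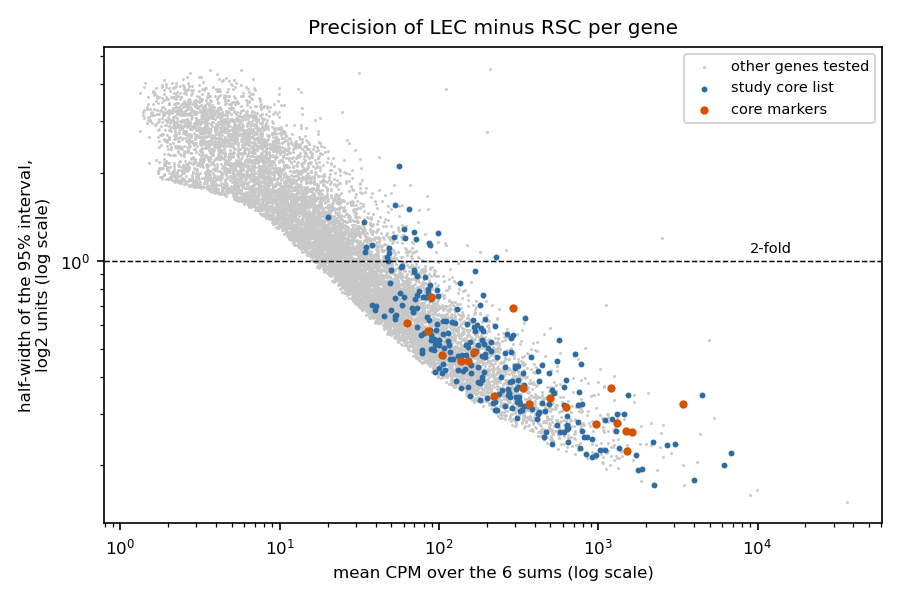
Half-width of the 95% interval of the LEC minus RSC difference, in log2 units, against the mean CPM of the gene over the 6 sums, both on log scales, for the genes that have an interval. The width falls with the level, and the 20 core markers all lie below the dashed line at 2-fold.

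No gene passed the threshold in the whole table. Of 11330 genes tested with edgeR, 0 were called (0.0%), while 472 had an unadjusted p under 0.05, 198 with LEC higher and 274 with LEC lower. DESeq2 called 9. The same fit without the 3 Gad1 and Gad2 cells also called 0, with 472 genes at an unadjusted p under 0.05.

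The core genes that the study listed gave a wider view, with the limit that they were picked by the study in the same cells. Of the 270 listed genes without Synpr, 269 were tested. Their LEC minus RSC difference had a median of -0.06 and an interquartile range of -0.24 to 0.08, beside a median of 0.01 over all genes tested and 0.04 over those of at least 50 CPM. The intervals of 209 (77.7%) lay inside 2-fold and those of 265 (98.5%) inside 4-fold, against 34.1% and 68.8% of all genes. Among genes of at least 50 CPM, 207 of the 254 listed (81.5%) lay inside 2-fold, against 84.1% of all. For 220 of the 269, the interval did not reach a 2-fold lower level in LEC cells, against 5743 of all 11330 genes. At 50 CPM or more this held for 215 of the 254 listed and 3552 of all 3863.

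More of the listed core genes were lower in LEC cells than in the table at large. The fitted difference was below 0 for 160 of the 269 (59.5%), against 49.2% of all genes. Among genes of at least 50 CPM it was below 0 for 58.7% of the listed genes and 43.3% of all. In the set chosen without labeled cells, described below, it was below 0 for 44.4% of the 36 genes at that level. Among the 254 listed genes of at least 50 CPM, every LEC sum was below every RSC sum for 22 (8.66%, against 4.43% of the 3863 genes at that level) and above for 8 (3.15%, against 6.65%). At an unadjusted p under 0.05, 13 of them were lower in LEC and 3 higher, where 1.84% and 2.77% of genes at that level were. As differences of log2(CPM + 0.5), the median of the list was -0.04, -0.12 and -0.07 in mice 1, 2 and 3, and within plate 12 it was -0.15, and with a Synpr limit of 100 CPM the fitted median was -0.12.

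The lowest of the listed core genes with at least 50 CPM was 6330527O06Rik, whose current symbol is Lamp5, a lysosome-associated membrane protein. It was at 51.3, 30.0 and 8.03 CPM in the LEC sums and 102, 55.8 and 116 CPM in the RSC sums, so every LEC sum was below every RSC sum. The difference was -1.61 (-2.89 to -0.33, edgeR p = 0.019, adjusted p = 0.9997), and it was -0.96 without mouse 3. In Unlabeled core-like cells the gene was at 34.1, 20.3 and 66.3 CPM, a range that overlaps both groups.

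Cux1, a homeobox transcription factor, was at 59.5, 26.3 and 83.5 CPM in LEC and 104, 117 and 139 CPM in RSC, again without overlap (-1.08, interval -1.90 to -0.25, edgeR p = 0.016, adjusted p = 0.9997). Gsg1l, an auxiliary subunit of AMPA receptors, was at 77.3, 77.6 and 52.9 CPM in LEC and 137, 104 and 121 CPM in RSC, with a difference of -0.80 (-1.32 to -0.29, edgeR p = 0.0065, adjusted p = 0.937). For both, the Unlabeled core-like sums were nearer to LEC, with 71.7, 51.5 and 78.8 CPM of Cux1 and 70.4, 53.9 and 81.2 CPM of Gsg1l. All these LEC values stood above the Synpr-low LEC means of 5.58 CPM for Cux1 and 9.77 CPM for Gsg1l. The Unlabeled, RSC and LEC core-like cells of a mouse lay on different plates, apart from plate 12, and the part of the plate in these values was not tested.

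The other low members were Nmb, the peptide neuromedin B, with a difference of -0.92 (-2.42 to 0.58), and Angpt1, a ligand of the angiopoietin receptor, with -0.80 (-1.73 to 0.13). For both the groups overlapped. Of the 13 listed genes with LEC lower at an unadjusted p under 0.05, the others were Dtnbp1 (-0.72), Mgll (-0.76), Cpne4 (-0.40), Laptm4b (-0.57), Camk2g (-0.75), Xpr1 (-0.51), Smarca2 (-0.30), Nr2f1 (-0.66), Rcan2 (-0.42) and Synj1 (-0.24). They include an endocannabinoid hydrolase (Mgll), a calcium-calmodulin kinase subunit (Camk2g), a nuclear receptor (Nr2f1) and a phosphatase of synaptic vesicle recycling (Synj1).

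Among the listed genes with LEC higher was Odz2, a teneurin, one of a family of transmembrane proteins that act in synaptic partner matching. It was at 710, 735 and 809 CPM in LEC and 537, 573 and 530 CPM in RSC, with every LEC sum above every RSC sum. The difference was 0.46 (0.22 to 0.70, edgeR adjusted p = 0.734), it was 0.48 by DESeq2 (adjusted p = 0.020), and over all alternatives run it ran from 0.34 to 0.51. Within plate 12 Odz2 was at 851 CPM in LEC and 558 CPM in RSC cells. Cyfip1, a member of the WAVE actin-regulatory complex, was at 64.4, 193 and 109 CPM in LEC and 69.5, 72.5 and 75.1 CPM in RSC, with overlap and an interval of -0.05 to 1.54. Fam84a (0.53), 6330406I15Rik (0.46; current symbol Medag) and Pcsk4 (0.43) followed, with intervals that included 0.

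**Figure D4:**
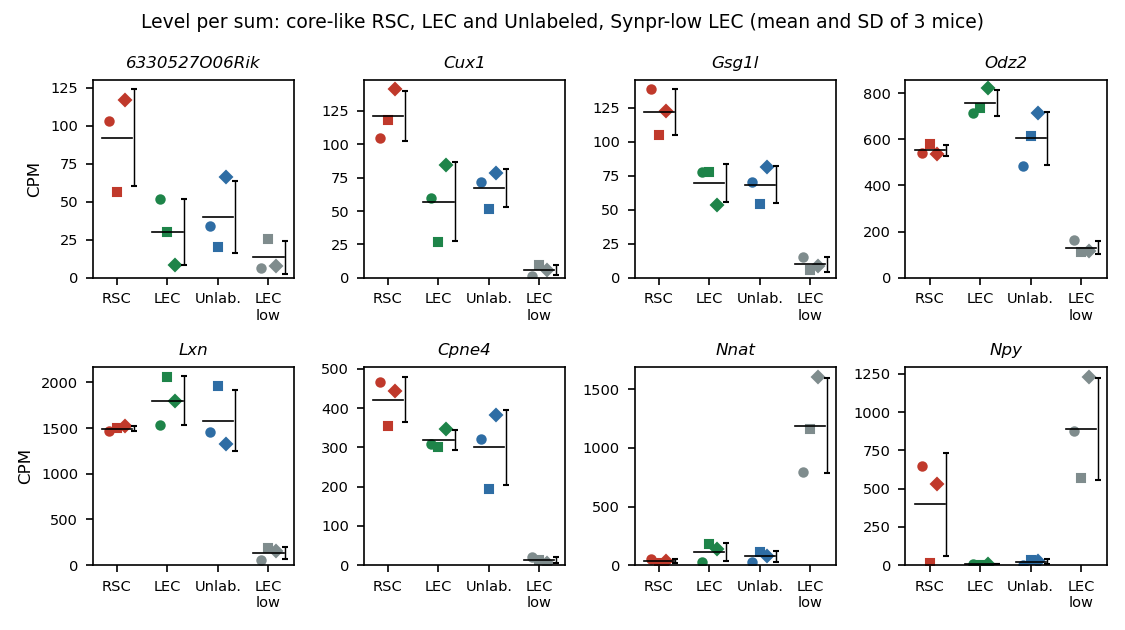
CPM per mouse (circle, square and diamond for mice 1, 2 and 3) of 8 genes, picked after their values had been seen, in core-like RSC, LEC and Unlabeled cells and in Synpr-low LEC cells, with the mean as a line and the SD of 3 sums as a bar. The LEC points lie below the RSC points for 6330527O06Rik, Cux1, Gsg1l and Cpne4 and above them for Odz2 and Lxn, and Npy is high in 2 of the 3 core-like RSC sums and in the Synpr-low LEC sums.

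The tightest limits were for abundant genes of the list. Prkar1b, a regulatory subunit of protein kinase A, was at 2127, 2166 and 2214 CPM in LEC and 2287, 2388 and 2246 CPM in RSC. Although these sums did not overlap, the difference was -0.09 and the interval -0.26 to 0.08. Klc1, a kinesin light chain, differed by -0.02 (-0.20 to 0.16), Gnao1, a G protein alpha subunit, by 0.07 (-0.13 to 0.26), Tubb5, a tubulin, by -0.0048 (-0.20 to 0.19) and Cck, cholecystokinin, by -0.10 (-0.30 to 0.10).

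A second set of core genes was chosen without any labeled cell. It held the 59 genes, Synpr left out, that were at least 4-fold higher in Synpr-high than in Synpr-low Unlabeled cells in each of the 3 mice, with a mean of at least 20 CPM. All 59 were tested between LEC and RSC core-like cells, with 0 called. Their median difference was -0.06. The intervals of 27 (45.8%) lay inside 2-fold and of 54 (91.5%) inside 4-fold, against 34.1% and 68.8% of all genes. Among the 36 of at least 50 CPM the median was 0.01, against 0.04 over all genes at that level. Of the 36, 44.4% were below 0, against 43.3%. Every LEC sum was above every RSC sum for 2 of the 36 and below for 2 (5.56% each, against 6.65% and 4.43%). The intervals of 25 (69.4%) lay inside 2-fold, against 84.1%. Of all 59, the lowest was Cux1 again, and the highest Scn9a, a voltage-gated sodium channel. Scn9a was at 1.23 with an interval of -0.04 to 2.49 and a mean of 13.4 CPM. Between these lay strongly core-restricted genes such as Car2, carbonic anhydrase (0.05, interval -0.44 to 0.53), Nr2f2, a nuclear receptor (0.14, -0.31 to 0.60), Col11a1, a collagen (0.07, -0.27 to 0.40), and Prkcd, protein kinase C delta (-0.51, -1.28 to 0.25).

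The same genes can be placed on a scale from 0%, the LEC Synpr-low sums, to 100%, the RSC core-like sums, using mean log2(CPM + 0.5). Over the 58 of the 59 genes that were at least 2-fold apart at the ends, LEC core-like sums had a median of 97.6%, with quartiles of 90.2% and 102%, and 0 genes lay under 50%. Over the 171 such genes of the study's core list the median was 92.2%, with 6 genes under 50%, and over 19 core markers it was 100.1%. The split at Synpr made both ends, so this position is a description of where LEC core-like cells lay and carries no test. Over all kept cells, without the split by Synpr, the same 59 genes differed between LEC and RSC by a median of -1.84 log2 units.

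The profile was also read cell by cell. Each cell was thinned to 20000 counts, which left out 4 RSC cells. Of the 20 core markers, LEC core-like cells had a count of a median of 17 (range 13 to 19 over 45 cells) and RSC core-like cells of 17 (3 to 20 over 209 cells), against 7 in Synpr-low LEC cells. The core score, the mean log2(CPM + 1) of these markers, had a median of 7.56, 7.27 and 7.60 in the LEC cells of mice 1, 2 and 3 and 7.64, 7.58 and 7.67 in the RSC cells. The lowest LEC score was 5.89 and the highest Synpr-low LEC score 5.71, so 45 of 45 LEC core-like cells were above it, as were 204 of 209 RSC cells. Of the 5 RSC cells that were not, 3 were the Gad1 and Gad2 cells. Cells are not replicates, and no test was made over them.

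**Figure D5:**
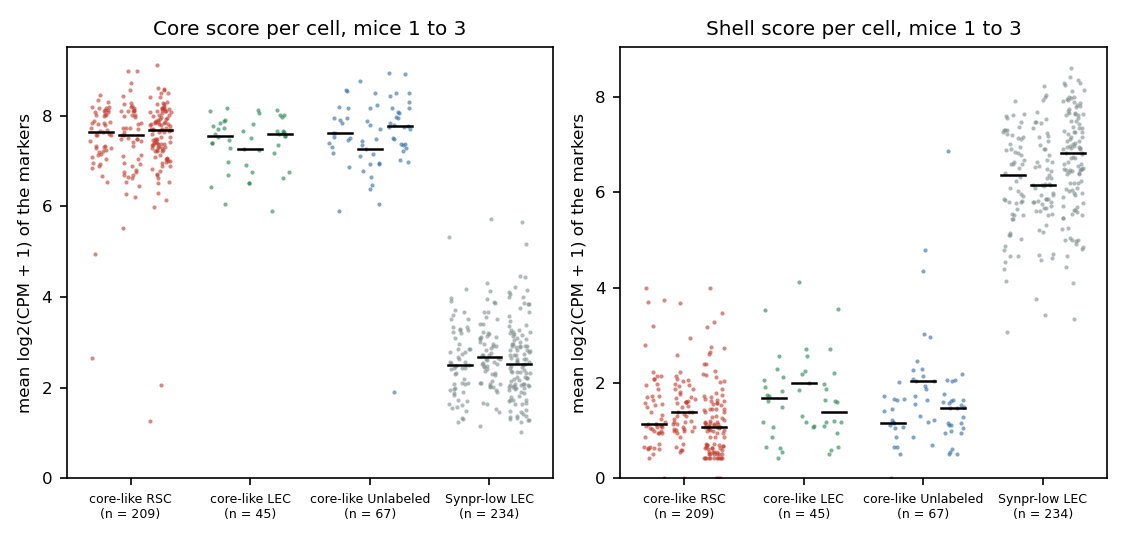
Mean log2(CPM + 1) of the 20 core markers (left) and 13 shell markers (right) per cell, each cell thinned to 20000 counts, with mice 1 to 3 side by side in each group and a line at the median. Core-like LEC cells lie near core-like RSC and Unlabeled cells in both panels, away from Synpr-low LEC cells. Their median shell score is above that of core-like RSC cells in each mouse. The few low core scores are in RSC and Unlabeled cells.

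Of the 45 LEC core-like cells, 3 (6.67%) fell below the 5th percentile of the RSC cells, a core score of 6.47. The LEC cell with the lowest score was the one just inside the limit, with 209 CPM of Synpr. It had counts of 13 of the 20 core markers and of 6 of the 13 shell markers.

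As a set, shell markers were low in core-like cells of both labels, with Syn2 as an exception. In thinned cells, Syn2 had a count in 45 of 45 LEC and 192 of 209 RSC core-like cells. Over the 13 markers, the shell score had a median of 1.63 in LEC core-like, 1.16 in RSC core-like, 1.51 in Unlabeled core-like and 6.50 in Synpr-low LEC cells. Of the 13 shell markers, LEC core-like cells had a count of a median of 3, RSC core-like cells of 2 and Synpr-low LEC cells of 10. The low levels of most of them made the intervals wide, and for 1 of the 13, Syn2, a synapsin (0.22, interval -0.21 to 0.66), the interval lay inside 2-fold.

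Nnat, neuronatin, a marker of shell neurons, was at 27.8, 177 and 132 CPM in the LEC sums and 52.2, 19.8 and 34.4 CPM in the RSC sums. LEC was higher in 2 of the 3 mice and the groups overlapped. The difference was 1.65 (0.29 to 3.01, edgeR p = 0.023, adjusted p = 0.9997), and it was 2.50 (1.58 to 3.41) without mouse 1, 0.87 (-0.86 to 2.60) without mouse 2 and 1.47 (-0.27 to 3.21) with the mouse as a block. All these values were far from the mean of 1190 CPM in Synpr-low LEC cells. In thinned cells pooled over the 3 mice, 40.0% of the 45 LEC core-like cells and 19.6% of the 209 RSC core-like cells had a count of Nnat. The share was 38.8% of the 67 Unlabeled core-like cells and 98.7% of the Synpr-low LEC cells. Without thinning, which leaves LEC cells with more counts than RSC cells, the shares were 84.4% in LEC and 45.5% in RSC core-like cells.

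Slc30a3, the zinc transporter of synaptic vesicles, was at 0.67, 45.3 and 89.2 CPM in LEC and 5.30, 0 and 8.34 CPM in RSC. Of its 401 counts in LEC core-like cells, 74.3% were in 1 cell and 98.0% in 3. The difference of 3.25 (0.03 to 6.47, edgeR adjusted p = 0.9997) became 2.60 (-1.32 to 6.52) with a Synpr limit of 500 CPM, which leaves out the cell with 209 CPM, and 2.999 (-1.68 to 7.68) with the mouse as a block. Cckbr, a cholecystokinin receptor, was at 45.8, 29.6 and 34.2 CPM in LEC and 22.7, 14.4 and 5.44 CPM in RSC. Every LEC sum of Cckbr was above every RSC sum, by 1.37 (0.16 to 2.58, edgeR p = 0.030, adjusted p = 0.9997), with a mean of 190 CPM in Synpr-low LEC cells.

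Npy, neuropeptide Y, showed how a few cells can set a sum. It was at 644, 11.7 and 523 CPM in the RSC sums and 7.33, 3.23 and 8.62 CPM in the LEC sums, a difference of -5.88 (-8.63 to -3.13, edgeR adjusted p = 0.734). Of the counts in RSC cells, 97.7% were in the 3 Gad1 and Gad2 cells of mice 1 and 3. Without them the difference was -0.88 with an edgeR p of 0.21. Sst, somatostatin, was listed at 0 in each LEC sum and at 114, 6.11 and 144 CPM in RSC, with 97.0% of its RSC counts in 2 of these cells. Counts of Sst were also found in other RSC cells, 93 of 213 in all against 0 of 45 LEC cells. Among Synpr-low cells, 15 of 34 with the label RSC and 0 of 241 with the label LEC had a count. Of the Unlabeled core-like cells, 17 of 67 had a count. Of the 4071 counts of Sst in RSC core-like cells, 3949 were in 2 of the Gad1 and Gad2 cells, so the other cells held few each. Counts of Sst in RSC-labeled cells were thus not particular to core-like cells. The Synpr-low cells lay on the same plates as the core-like cells of their label, and the part of the plate was not tested. Without the 3 cells the edgeR p of Sst was 0.0025 (adjusted p = 0.781), but it passed the filter on low counts through its RSC sums alone.

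The genes that the study listed for the shell were also chosen by the study in these cells. Of 161 genes, 155 were tested, and their LEC minus RSC difference had a median of 0.10, with 93 above 0. The median was 0.30 with a Synpr limit of 100 CPM and 0.04 with the mouse as a block, and as differences of log2(CPM + 0.5) it was -0.08, 0.20 and 0.17 in mice 1, 2 and 3. At an unadjusted p under 0.05, 15 were higher in LEC and 7 lower (14.2% together, against 4.17% of all genes), and 0 passed the threshold. Of the 7, Sst, Ext1 and Cxcl12 passed the filter on low counts through RSC sums alone, and Npy rested on the Gad1 and Gad2 cells. Of the 15, Slc30a3 had most of its LEC counts in 1 cell, as given above. Among the 71 of at least 50 CPM these counts were 9 and 1 (14.1% together, against 4.61% of genes at that level), the 1 being Npy.

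Members with LEC higher included Rgs2, a regulator of G protein signalling, at 197, 228 and 259 CPM in LEC and 115, 178 and 148 CPM in RSC (0.63, interval 0.18 to 1.08). Camkv, a kinase-like synaptic protein, was at 515, 465 and 622 CPM in LEC and 385, 428 and 357 CPM in RSC (0.45, 0.13 to 0.78), and Galntl1 at 74.6, 98.8 and 103 CPM in LEC and 27.5, 56.5 and 34.5 CPM in RSC (1.23, 0.52 to 1.94). Fth1, ferritin heavy chain, a gene with near-identical copies whose count is uncertain, showed the smallest of these differences, 0.22 (0.04 to 0.39). In each of the 4 genes every LEC sum was above every RSC sum. They were picked from the list after their values had been seen.

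When shell genes were instead chosen in Unlabeled cells, by the same rule as the core genes with the direction turned, the median was near 0 in the fit and below 0 in each mouse. Of 77 such genes 53 were tested, with a median difference of 0.00, 27 above 0 and 26 below. As differences of log2(CPM + 0.5), their median was -0.85, -0.12 and -0.42 in mice 1, 2 and 3. No value of this measure over all genes is given beside it. Among all genes under 10 CPM the fitted median was -0.13, with 55.9% below 0. The LEC sum of each mouse held fewer counts than its RSC sum, and the part of depth was not tested. Every LEC sum was below every RSC sum for 7 of them (13.2%, against 7.03% of all genes and 10.4% of genes under 10 CPM) and above for 0 (3.30% of genes under 10 CPM), and 2 were higher and 4 lower at an unadjusted p under 0.05. The 2 were Nnat and Slc30a3. Of the 4, Npy rested on the Gad1 and Gad2 cells, and Cxcl12 and Gpr158 had LEC means of 0.60 and 0.72 CPM. The 53 genes had a median level of 9.38 CPM and a median half-width of 2.07 log2 units, so the interval of a typical member reached 4.21-fold either way of its estimate.

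Several of the genes with the smallest p-values had few counts. Of the 10 genes with the smallest p among those with the same direction in all 3 mice, 5 were listed at 0 in each LEC sum: Cdh15, Sst, Zfp389, Lhfpl1 and Zfp458. These 5 passed the filter on low counts through their RSC sums alone, so among tested genes they had to differ, and their values are given as a description. Cdh15, a cadherin, was at a mean of 12.1 ± 1.66 CPM (SD, n = 3) in RSC, from 15 of 213 cells. Zfp389, Lhfpl1 and Zfp458 had counts in 13, 14 and 11 RSC cells. Few cells held the counts of these genes, so no fold is given for them. For Cdh15, 0 of 45 LEC cells had a count, against 15 of 213 RSC cells.

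Of the other 5 genes, Cdh12, another cadherin, was at 15.4, 10.97 and 10.3 CPM in RSC and 0.67, 0 and 0 CPM in LEC (-5.50, interval -8.18 to -2.82, edgeR adjusted p = 0.734). It had counts in 30 RSC cells and 1 LEC cell. Like the genes above, it passed the filter on low counts through its RSC sums alone, so its values are a description. Nos1, neuronal nitric oxide synthase, had 94.1% of its 734 RSC counts in 2 of the Gad1 and Gad2 cells, and without the 3 cells it did not pass the filter on low counts and was not tested. The predicted gene Gm2155 was the only one of the 10 with LEC higher, with 91 counts in 3 LEC cells and 3 counts in 2 RSC cells, and 6430550D23Rik had 1 count in LEC. Nos1 and 6430550D23Rik also passed the filter through RSC sums alone, and Gm2155 through LEC sums alone. The last of the 10 was Npy.

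Genes linked to wiring and excitability were looked at as groups, and no member passed the threshold. Of 43 axon guidance genes tested, 0 passed the threshold, and 1 was higher and 1 lower at an unadjusted p under 0.05 (4.65%, against 4.17% of all genes). Robo2, a receptor for Slit, was at 11.99, 17.1 and 19.9 CPM in LEC and 33.4, 34.5 and 32.4 CPM in RSC (-1.04, interval -1.88 to -0.19), and Efnb3, an ephrin, at 20.9, 37.9 and 36.0 CPM in LEC and 12.3, 0.90 and 11.3 CPM in RSC (1.93, 0.16 to 3.69). The median difference of the group was 0.01 and its median half-width 1.22.

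Among 57 genes of voltage-gated and leak channels, 2 were higher and 4 lower at an unadjusted p under 0.05 (10.5%, against 4.17% of all genes), with a median of -0.18. Of the 4 lower, Kcnab1 and Cacna1c passed the filter on low counts through their RSC sums, so their direction is a description. In LEC, Kcnab1 was at 0, 0.46 and 0 CPM and Cacna1c at 4.44, 0.92 and 0 CPM. Kcnh7, a potassium channel, was at 55.1, 24.9 and 55.6 CPM in LEC and 98.4, 62.0 and 92.8 CPM in RSC (-0.89, -1.67 to -0.11). Kcnip1, a potassium channel accessory protein, was at 11.3, 55.4 and 63.3 CPM in LEC and 22.7, 7.01 and 14.1 CPM in RSC (1.56, 0.07 to 3.04). Every LEC sum was below every RSC sum for 8 of the 57 (14.04%, against 7.03% of all genes) and above for 0, with Kcnab1 and Cacna1c among the 8. Of the 19 cadherins and protocadherins listed and tested, 1 had an unadjusted p under 0.05. This was Cdh12, which passed the filter on low counts through its RSC sums alone. Cdh15, described above, was not on that list.

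Immediate early genes, which neurons switch on with activity or handling, summed to 1852 to 2885 CPM in the LEC sums and 1607 to 2684 CPM in the RSC sums, and 0 of the 19 tested had an unadjusted p under 0.05. Layer 6 markers summed to 24.3 to 88.6 CPM in LEC and 50.3 to 155 CPM in RSC, with 6 of the 12 at 0 in LEC, Foxp2 among them.

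Markers of other cells differed in level between sums. The 9 inhibitory markers found in the table summed to 155, 6.46 and 226 CPM in the RSC sums and 2.67, 0 and 0 CPM in the LEC sums, where 8 of the 9 were at 0, Gad1, Gad2 and Slc32a1 included. The 8 oligodendrocyte genes summed to 1048 CPM in the LEC sum of mouse 1 and to between 59.0 and 240 CPM in the other 5 sums, and the 4 of them that were tested were higher in LEC in the fit, with a median of 1.36, a range of 0.93 to 2.25 and 0 at an unadjusted p under 0.05. The 7 astrocyte genes ranged from 19.0 to 35.9 CPM in LEC and 17.9 to 36.0 CPM in RSC, with Aqp4 at 0 in both, and the 9 microglia genes from 15.2 to 38.1 CPM and 15.1 to 59.7 CPM, with Tmem119 at 0 in both. The 6 endothelial and mural genes found in the table ranged from 71.3 to 152 CPM in LEC and 127 to 169 CPM in RSC, with Vtn at 0 in both. Their part in the differences above was not tested, beyond the fit without the Gad1 and Gad2 cells.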

How the data were processed

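Single cells of mouse claustrum were sequenced, and the authors deposited counts per gene and cell that were not normalized, with tables of each cell's mouse and projection label. Alignment was with STAR after cell barcodes and molecular identifiers had been read. The Methods give totals in reads, so several counts may come from 1 molecule. Shares of cells are given without intervals. The submitters' processing notes name the build NCBIM37. The version of STAR, the annotation and the use of strand are not given in the sources used here, so overlapping and antisense genes are uncertain.

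Spike-ins were left out. Counts were summed per mouse and label, and the 6 sums were tested with edgeR 4.0.16 (TMM, filterByExpr, quasi-likelihood, two-sided, Benjamini-Hochberg over 11330 genes, threshold 0.05). The 95% interval used the log2 difference divided by the square root of F and the t distribution with a median of 9.06 degrees of freedom. For differences very near 0, such as those of Oprk1 and Tubb5, the standard error came from the fitted means and dispersion instead. The 3 mice are the replicates. Sums ranged from 2202114 to 18753910 counts. Levels of Synpr-low and Unlabeled sums, and both plots of levels, use 1 TMM scaling of all sums, which moved core-like values by at most 1.54%. Other tools were R 4.3.3, limma 3.58.1, DESeq2 1.42.0, numpy 2.4.6, pandas 2.3.3 and scipy 1.17.1. The fit was tested on simulated data. No doublet caller was run.

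The sums of a mouse come from 1 animal. Deviations from the group means correlated at 0.016 to 0.045 between sums of the same mouse and at -0.059 to 0.038 between other pairs, and a fit with a term for the mouse was made as an alternative.

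Named genes were the core and shell markers, the 10 smallest p-values with the same direction in 3 mice, and, of the study's core list, the 5 lowest and 5 highest with at least 50 CPM and the 5 narrowest intervals. Genes past the threshold in an alternative, and members of lists with an unadjusted p under 0.05, were named after their values had been seen. Members and lists were chosen with earlier results of these data known. Core and shell lists of the study came from its supplementary tables, as gene names only.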

Additional observations from a re-analysis of the deposited data

How the results depend on the processing

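The comparison was repeated under 16 alternatives. The count of genes past the threshold was 0 by edgeR and 9 by DESeq2 (Gm2155, Cdh15, Sst, Nos1, Npy, Zfp389, Odz2, Cdh12 and Lhfpl1), and 0 to 1 when 1 mouse was left out, the 1 being Npy without mouse 2. In the other 12 alternatives it was 0. Of the 9, all but Npy and Odz2 passed the filter on low counts through the sums of 1 label alone. With the mouse as a replicate block, 409 genes had an unadjusted p under 0.05, the core list had a median of -0.07 and the shell list one of 0.04, and no call changed. With a Synpr limit of 100 CPM the medians were -0.12 and 0.30. Within plate 12, the core list was at -0.15, a value with no test. Its other medians ran from -0.08 to -0.03. The cause of these moves was not tested. Fits without plate 12, with cells of at least 100000 counts only, and without cells with Gad1 and Gad2 were added after seeing the data. The fit with the plate as a block could not be made, since 1 plate held both labels. Of 922 values of 59 named genes under alternatives, 783 lay within 1 standard error of the reported one, 10 passed the threshold, and 58 had the other sign, in 20 genes. Depth limits genes under 10 CPM, none of which had an interval inside 2-fold.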
